A study of Mus musculus with 4 samples.

Results

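The genes described here encode the signal-transducing parts of the T cell receptor complex and the proteins that act right beside it, measured in mouse regulatory T cells (Treg), a CD4 lineage set by the transcription factor Foxp3 that holds immune responses in check. They are the CD3 chain genes Cd3d, Cd3e, Cd3g and Cd247, the coreceptor gene Cd4, the receptor modulator gene Cd5, the kinase genes Lck and Zap70, the adaptor gene Lat and the CD45 phosphatase gene Ptprc. These 10 genes were chosen by symbol among the 19044 gene rows of a count table, and all 10 passed the level filter that left 9680 genes for testing. The antigen-binding receptor chains have almost no cytoplasmic tail, so signals enter the cell through tyrosine-based motifs in the tails of the CD3 chains. Lck, held near the receptor by CD4, phosphorylates these motifs, ZAP-70 docks on them and phosphorylates the scaffold LAT, and CD45 keeps Lck active by removing its inhibitory phosphate. Treg cells need receptor signals to mature and to keep their suppressive program.

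The cells came from spleen and peripheral lymph nodes of untreated mice. The mice labelled knockout were Ripk1fl/fl Foxp3-YFP-Cre, in which a Cre recombinase fused to yellow fluorescent protein and expressed under Foxp3 control removes the loxP-flanked part of Ripk1 in Foxp3-expressing cells. The mice labelled WT were Foxp3-YFP-Cre, so all mice carried the Cre. Each genotype gave 1 aTreg and 1 rTreg library, which in this field stand for activated and resting Treg cells, so there were 4 libraries and no replicate of any group. The sources used here give neither the age, sex or number of the mice nor the sorting gate. With no replicates, a p-value here does not measure the spread between mice. It rests on what the fit leaves unexplained between these 4 libraries, largely pooled over genes.

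The libraries held between 17588754 and 20868319 counts. Ripk1, the targeted gene, was at 80.8 CPM (counts relative to library size, scaled between libraries with the TMM method) in the aTreg and 84.7 in the rTreg library labelled knockout, against 77.5 in WT aTreg and 83.6 in WT rTreg. It was not called between genotypes (edgeR adjusted p = 0.658), so the level does not bear out the label and the libraries are called KO-labelled. Where in the gene the reads lie is not known, and a count over the whole gene can miss the loss of single exons. Xist, the RNA that coats the inactive X chromosome of female cells, was at 0.213 and 0.284 CPM in the KO-labelled aTreg and rTreg libraries, against 338 and 299 CPM in WT aTreg and rTreg. A difference in the sex of the mice therefore cannot be told apart from genotype in any comparison below. Ribosomal protein genes took 6.17% and 6.44% of the counts in the KO-labelled aTreg and rTreg libraries, against 7.29% and 7.42% in WT aTreg and rTreg. The labelled cell type was borne out by Foxp3 (between 619 and 693 CPM) and Cd4, while of the CD8 genes Cd8a stayed at or below 0.799 CPM and Cd8b1 was at 8.85 and 12.2 CPM in KO-labelled aTreg and rTreg, against 7.72 and 10.1 CPM in WT aTreg and rTreg. Red cell and platelet genes, 6 of 6 of which were higher in both KO-labelled libraries, summed to 13.6 and 11.7 CPM there in aTreg and rTreg, against 1.12 and 0.477 CPM in WT aTreg and rTreg. Of 9 myeloid genes 6 were higher in both KO-labelled libraries, with sums of 5.06 and 7.38 CPM in KO-labelled aTreg and rTreg, against 2.14 and 2.19 CPM in WT aTreg and rTreg, with Adgre1, S100a8 and S100a9 at 0 in 1 or more libraries. The 8 B cell genes, 3 of which were higher in both KO-labelled libraries, summed to 722 and 759 CPM in KO-labelled aTreg and rTreg, against 613 and 360 CPM in WT aTreg and rTreg. Most of this was Ighm, which rose by 0.67 log2 units (edgeR adjusted p = 0.00148). The 2 NK cell genes, 1 of them higher in both KO-labelled libraries, summed to 7.35 and 7.27 CPM in KO-labelled aTreg and rTreg, against 2.91 and 2.19 CPM in WT aTreg and rTreg. For comparison, 33.2% of all tested genes were higher in both KO-labelled libraries. The red cell, platelet, myeloid and NK cell genes named here were all below the level filter. The part of any of these differences in the results below was not tested. In RNA from pooled cells, fewer cells of a type and less RNA per cell cannot be told apart.

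Cd3d and Cd3g lie head to head on chromosome 9, with starts 1355 bases apart, and the genotype difference found below touched Cd3d and not Cd3g. The 250 bases before an annotated start of each are shown 5′ to 3′ on the strand of the gene. Windows are shown likewise for Lck and Zap70, the kinase genes among the 10 genes. All come from RefSeq with build GRCm38.p6. RefSeq windows were found for 9 of the 10 genes. Capitals mark matches on either strand to short motifs. The Ets core was searched as AGGAAG and the Runx core as TGTGGT. For the E-box the letters searched were CAGGTG, and for the binding motif of GATA factors they were AGATAA. The TATA box was searched as TATAAA, whereas the GC box was searched as GGGCGG.
Cd3d, chr9:44981536-44981785, plus strand: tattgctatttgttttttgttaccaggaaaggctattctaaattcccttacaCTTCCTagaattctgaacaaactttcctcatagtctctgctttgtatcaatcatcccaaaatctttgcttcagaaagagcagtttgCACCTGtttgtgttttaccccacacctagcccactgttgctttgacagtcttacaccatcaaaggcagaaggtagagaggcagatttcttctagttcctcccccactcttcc
Cd3g, chr9:44980432-44980681, minus strand: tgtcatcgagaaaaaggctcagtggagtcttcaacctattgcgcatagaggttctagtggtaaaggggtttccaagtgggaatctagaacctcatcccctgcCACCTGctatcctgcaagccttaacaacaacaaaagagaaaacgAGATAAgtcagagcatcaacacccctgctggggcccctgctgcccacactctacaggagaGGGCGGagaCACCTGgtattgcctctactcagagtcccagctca
Lck, chr4:129573642-129573891, minus strand: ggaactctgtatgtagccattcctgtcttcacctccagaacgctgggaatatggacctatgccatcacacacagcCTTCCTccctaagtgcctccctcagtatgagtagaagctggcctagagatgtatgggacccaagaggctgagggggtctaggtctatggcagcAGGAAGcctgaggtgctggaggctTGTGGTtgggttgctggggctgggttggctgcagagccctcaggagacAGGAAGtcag
Zap70, chr1:36761548-36761797, plus strand: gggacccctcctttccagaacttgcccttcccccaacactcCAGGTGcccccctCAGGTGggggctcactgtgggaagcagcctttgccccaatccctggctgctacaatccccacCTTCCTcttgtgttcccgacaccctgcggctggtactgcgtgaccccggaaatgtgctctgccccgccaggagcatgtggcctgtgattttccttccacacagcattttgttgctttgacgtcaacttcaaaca
The Cd3d window held an Ets core 198 bases and an E-box 112 bases before the start, and no CpG dinucleotide. The Cd3g window held no Ets core but had E-boxes 148 and 35 bases, a GATA match 104 bases and a GC box 44 bases before the start. Its G and C content was 51.6%, against 41.2% for Cd3d, and it held 4 CpG dinucleotides. The Lck window, before the more distant of its starts in the RefSeq table, held 3 Ets cores and a Runx core, and the Zap70 window, before the most upstream of its 3 starts there, 1 Ets core and 2 E-boxes. The other windows of Lck and Zap70 held other matches and are not shown. None of these 4 windows held the TATA letters. Over all 32851 RefSeq windows of the same length, 29.5% held the Ets core, 14% the Runx core, 17.2% the E-box, 9.99% GATA, 12.4% TATA and 32.7% the GC box, and a match is a description of letters only.

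The mRNAs of this machinery were abundant and nearly level over the 4 libraries. Per length of annotated exons (RPKM, CPM per kilobase of the union of exons of the GENCODE M21 basic transcripts), Lat was highest by its mean over the libraries (484 RPKM), followed by Ptprc (426), Cd3g (377), Lck (356), Cd4 and Cd5 (261 each), Cd3e (228), Cd3d (199), Zap70 (173) and Cd247 (61.7). Neighbours in this order overlapped or met over the libraries, apart from Lck (305 to 400 RPKM) and Cd4 (232 to 287), Cd5 (255 to 264) and Cd3e (217 to 239), and Zap70 (141 to 213) and Cd247 (59.8 to 66). The order depended on the transcripts counted as exons. With all GENCODE M21 transcripts Lck came highest (282 RPKM) and Ptprc was at 119 RPKM, with Cd247 lowest either way (52.8 RPKM). The strand used in counting is not known, and 3007 exon bases of Cd247 are shared with Pou2f1 on the opposite strand. The place of Cd247 in this order is therefore uncertain. Between libraries the highest level of a gene was between 1.03 times (Cd5) and 1.5 times (Zap70) its lowest. The median was 1.18 over the 10 genes and 1.33 over all tested genes, which were not matched for level. The 10 genes had 4782 or more counts in each library, while the median tested gene had 752 to 878 across the libraries.

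**Figure D1:**
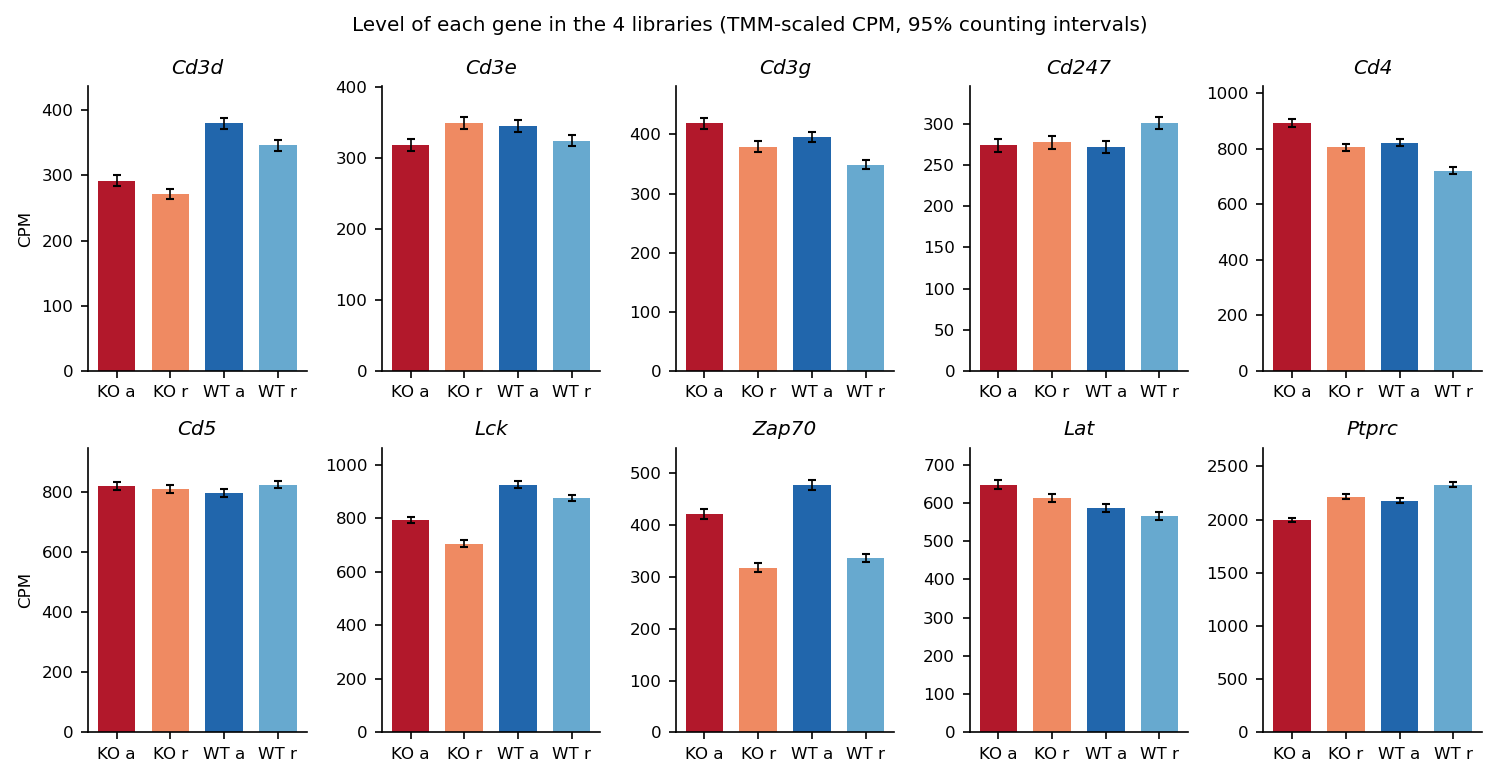
Bars give the level of each gene in CPM, scaled between libraries with TMM, in 1 library per bar (KO a and KO r are the KO-labelled aTreg and rTreg libraries, WT a and WT r the WT ones), and lines give 95% counting intervals from the square root of the count. Cd3d and Lck are lower in both KO-labelled libraries than in both WT libraries, and Zap70 is higher in aTreg than in rTreg.

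Between genotypes, Cd3d and Lck fell in the KO-labelled libraries and the other 8 genes did not pass the test. The test was edgeR's quasi-likelihood fit over the 4 libraries with genotype and state as additive terms, which leaves 1 residual degree of freedom, with Benjamini-Hochberg adjustment over all tested genes at 0.05. It called 2 of the 10 genes, none higher and 2 lower, where 47.2% of all tested genes were called (24.4% higher and 22.8% lower). The median size of the log2 change was 0.11 over the 10 genes and 0.24 over all tested genes, again not matched for level. Of the 10 genes 3 did not overlap between genotypes (Cd3d and Lck lower, Lat higher in the KO-labelled libraries), against 65.1% of all tested genes (33.2% higher and 31.9% lower). None of the 10 was 2-fold apart in either state, where 6.12% of tested genes were in aTreg and 4.75% in rTreg.

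Among the CD3 chains, Cd3d differed from its partners. Cd3d, which pairs with CD3 epsilon in the complex (chromosome 9, 44981786 to 44987339, plus strand, GRCm38, a protein-coding gene like the other 9), stood at 292 CPM in KO-labelled aTreg and 272 CPM in KO-labelled rTreg, against 380 CPM in WT aTreg and 346 CPM in WT rTreg. Both KO-labelled libraries lay below both WT libraries. The log2 ratio was −0.38 in aTreg, with a 95% counting interval of −0.43 to −0.33, and −0.35 in rTreg, with an interval of −0.40 to −0.30. Over both states Cd3d fell by 0.37 log2 units (SE 0.0666, edgeR adjusted p = 0.000617). With genotype as the only term the adjusted p was 0.0513, and between 0.0518 (without WT rTreg) and 0.21 (without KO-labelled rTreg) when 1 library was left out as well, with a negative difference in each. In the authors' deposited table, whose log2 fold change runs the other way (0.36, WT over knockout), Cd3d had an adjusted p of 0.0241, the lowest of the 10 genes, and Lck the next at 0.134, where 16.6% of the genes with an adjusted p were under 0.05.

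Cd3g, which also pairs with CD3 epsilon (chromosome 9, 44969572 to 44980431, minus strand), was at 419 CPM in KO-labelled aTreg and 379 CPM in KO-labelled rTreg, against 396 CPM in WT aTreg and 349 CPM in WT rTreg. Its genotypes overlapped and it did not pass (log2 fold change 0.10, edgeR adjusted p = 0.248). Cd3e, the chain shared by both CD3 dimers (chromosome 9, 44998740 to 45009627, minus strand), was at 318 CPM in KO-labelled aTreg and 349 CPM in KO-labelled rTreg, against 345 CPM in WT aTreg and 324 CPM in WT rTreg. Its highest and lowest libraries were thus both KO-labelled (edgeR adjusted p = 0.948). Cd247, the zeta chain with the most signalling motifs (chromosome 1, 165788681 to 165877277, plus strand), was at 274 CPM in KO-labelled aTreg and 278 CPM in KO-labelled rTreg, against 272 CPM in WT aTreg and 301 CPM in WT rTreg (edgeR adjusted p = 0.557). Its exons share 3007 bases with Pou2f1 on the opposite strand, which had up to 84.2 CPM, and without known strand in the counting its reads cannot be told apart from those of Pou2f1 there.

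Ratios of reads within a library do not depend on scaling between libraries. The ratio of Cd3d to Cd3g reads was 0.696 in KO-labelled aTreg and 0.717 in KO-labelled rTreg, against 0.959 in WT aTreg and 0.991 in WT rTreg. On the log2 scale the ratio was lower by 0.46 in aTreg and 0.47 in rTreg, nearly the same in both states, with counting intervals of −0.53 to −0.40 and −0.54 to −0.40. Cd3d made up 22.4% of the reads of the 4 CD3 chain genes in KO-labelled aTreg and 21.3% in KO-labelled rTreg, against 27.3% in WT aTreg and 26.2% in WT rTreg. Exact binomial (Clopper-Pearson) 95% intervals for these shares reached at most 22.9% in the KO-labelled libraries and went down to 25.7% in WT. The summed level of the CD3 chain genes was 1303 CPM in KO-labelled aTreg and 1277 CPM in KO-labelled rTreg, against 1394 CPM in WT aTreg and 1321 CPM in WT rTreg. These ratios were picked after the values were seen and have no test.

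**Figure D2:**
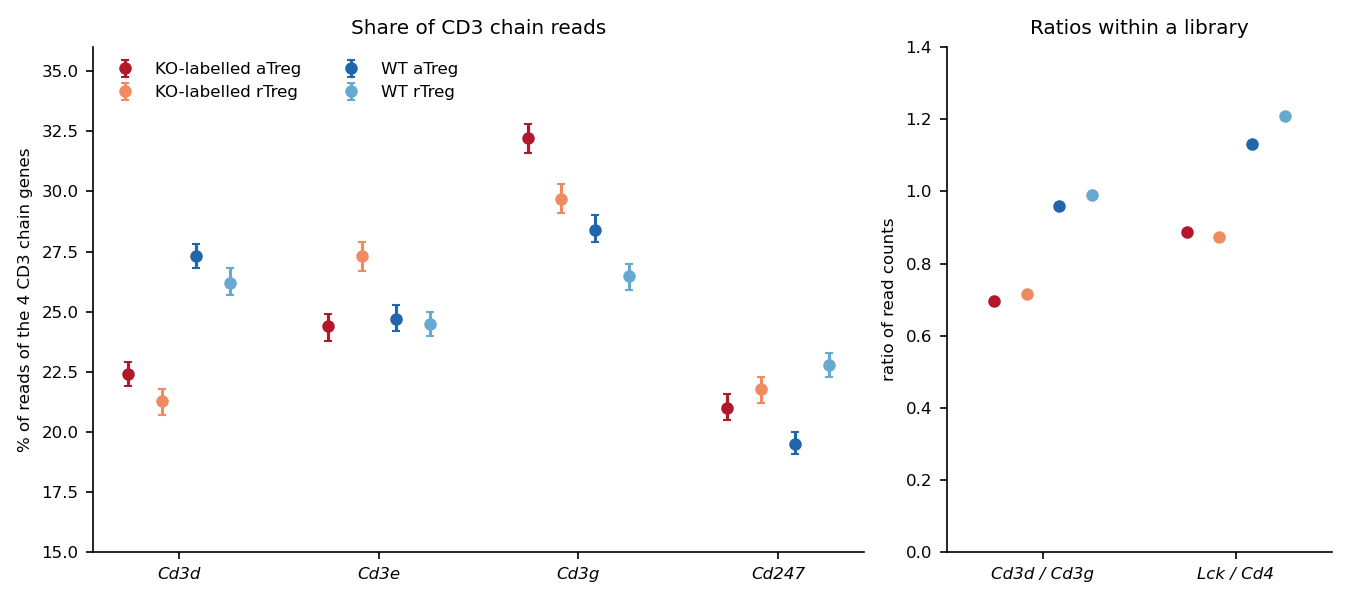
The left panel gives each CD3 chain gene's share, in percent, of the reads of the 4 CD3 chain genes in each library with exact binomial 95% intervals, on an axis that starts at 15%, and the right panel the ratio of read counts of Cd3d to Cd3g and of Lck to Cd4. Cd3d takes 21.3% to 22.4% in the KO-labelled libraries and 26.2% to 27.3% in the WT libraries, and both ratios are lower in the KO-labelled libraries.

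Of the coreceptor and kinase genes, Lck fell and Cd4 and Zap70 did not pass between genotypes. Lck, the kinase that starts receptor signalling (chromosome 4, 129548344 to 129573641, minus strand), was at 794 CPM in KO-labelled aTreg and 706 CPM in KO-labelled rTreg, against 926 CPM in WT aTreg and 876 CPM in WT rTreg. Its genotypes did not overlap, and its log2 ratio was −0.22 in aTreg (interval −0.25 to −0.19) and −0.31 in rTreg (−0.345 to −0.28). Over both states Lck fell by 0.27 log2 units (SE 0.0686, edgeR adjusted p = 0.00626). With genotype as the only term the adjusted p was 0.103, and between 0.16 (without WT rTreg) and 0.314 (without KO-labelled rTreg) when 1 library was left out as well.

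Cd4 (chromosome 6, 124864692 to 124888221, minus strand) was at 893 CPM in KO-labelled aTreg and 806 CPM in KO-labelled rTreg, against 823 CPM in WT aTreg and 722 CPM in WT rTreg. Within each state it was higher in the KO-labelled library, but the genotypes overlapped and it did not pass (log2 fold change 0.14, edgeR adjusted p = 0.108). The ratio of Lck to Cd4 reads was 0.888 in KO-labelled aTreg and 0.875 in KO-labelled rTreg, against 1.13 in WT aTreg and 1.21 in WT rTreg. Of the 45 pairs among the genes described, 20 did not overlap between genotypes in the ratio of their reads, this pair among them. Of those 20, 14 held Cd3d or Lck, which were in 17 of the 45 pairs. The ratio of Lck to Cd4 has no test. Zap70, the kinase recruited to phosphorylated CD3 chains (chromosome 1, 36761798 to 36782818, plus strand), was at 421 CPM in KO-labelled aTreg and 318 CPM in KO-labelled rTreg, against 478 CPM in WT aTreg and 336 CPM in WT rTreg. Its genotype difference was −0.13 log2 units (edgeR adjusted p = 0.128), which passed with upper-quartile scaling only among the additive fits tried (−0.18, edgeR adjusted p = 0.0454).

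The adaptor, modulator and phosphatase genes did not pass between genotypes. Lat, the membrane scaffold that ZAP-70 phosphorylates (chromosome 7, 126363824 to 126369570, minus strand), was at 648 CPM in KO-labelled aTreg and 613 CPM in KO-labelled rTreg, against 586 CPM in WT aTreg and 567 CPM in WT rTreg. Both KO-labelled libraries lay above both WT libraries, by 0.13 log2 units over both states (edgeR adjusted p = 0.136). Cd5, a surface receptor that dampens receptor signals (chromosome 19, 10717116 to 10739002, minus strand), was the most level of the 10, at 821 CPM in KO-labelled aTreg and 812 CPM in KO-labelled rTreg, against 797 CPM in WT aTreg and 825 CPM in WT rTreg. Ptprc (chromosome 1, 138062861 to 138175708, minus strand) was at 1999 CPM in KO-labelled aTreg and 2217 CPM in KO-labelled rTreg, against 2179 CPM in WT aTreg and 2329 CPM in WT rTreg. Within each state Ptprc was lower in the KO-labelled library and it did not pass (log2 fold change −0.10, edgeR adjusted p = 0.258). A count per gene does not separate the CD45 isoforms, which differ in their spliced exons.

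**Figure D3:**
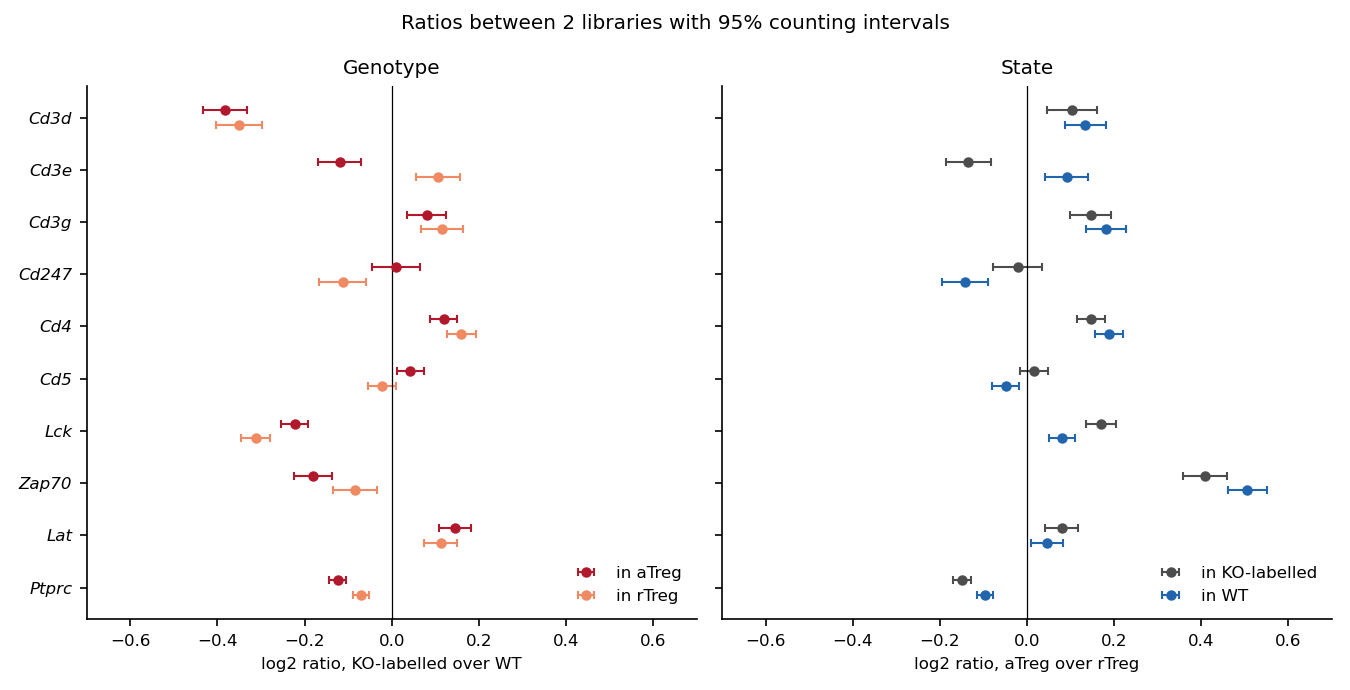
Points give the log2 ratio of 2 libraries for each gene, KO-labelled over WT on the left (in aTreg and rTreg) and aTreg over rTreg on the right (in KO-labelled and WT libraries), and lines give exact binomial 95% counting intervals. Cd3d and Lck lie left of 0 in both states, and Zap70 lies farthest right between states, at 0.41 and 0.51.

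Between states, Zap70 rose in aTreg and the other 9 genes did not pass. Zap70 was 0.41 log2 units higher in aTreg than in rTreg in the KO-labelled pair (counting interval 0.36 to 0.46) and 0.51 higher in WT (0.46 to 0.55). Over both genotypes the rise was 0.46 log2 units, with an SE of 0.0684 and an edgeR adjusted p of 0.000742. The additive fit thus called 1 of the 10 genes, where 13.4% of all tested genes were called (7.91% higher and 5.44% lower). With state as the only term Zap70 was not called, the adjusted p being 1.0, and no tested gene was called in that fit, with 328 at an unadjusted p under 0.05; DESeq2 with the additive terms called 423. Zap70 was also 0.35 to 0.55 log2 units higher in aTreg in the state-only fits that left out 1 library each, with WT aTreg left out giving the lowest value and KO-labelled aTreg the highest, and an adjusted p of 0.999 or more in each.

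Smaller shifts that did not pass went both ways between states. Cd4 was 0.15 log2 units higher in aTreg in the KO-labelled pair and 0.19 in WT (edgeR adjusted p = 0.129), and Cd3g 0.15 and 0.18 (edgeR adjusted p = 0.136). Ptprc was lower in aTreg, at −0.15 in the KO-labelled pair and −0.10 in WT (edgeR adjusted p = 0.285). Of the 10 genes 5 did not overlap between states, 3 higher (Cd3g, Cd4 and Zap70) and 2 lower (Cd247 and Ptprc) in aTreg, against 27.0% of all tested genes (14.1% higher and 12.9% lower). None was 2-fold apart within a genotype, where 1.08% of tested genes were in the KO-labelled pair and 2.59% in WT.

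The constant regions and surface partners of the receptor were read from lists of pathway genes. Trbc2, a constant region of the receptor beta chain, was at 661 CPM in KO-labelled aTreg and 718 CPM in KO-labelled rTreg, against 632 CPM in WT aTreg and 773 CPM in WT rTreg, and passed neither test (edgeR adjusted p = 0.825 for genotype and 0.0801 for state). Reads of the near-identical Trbc1 may be counted with it, and Trac, Trbc1 and Ptprcap are not analysed here. Of 7 accessory surface receptor genes, 3 rose and 2 fell between genotypes, and 2 rose and none fell between states. That is 71.4% called for genotype and 28.6% for state, against 47.2% and 13.4% of all tested genes. Cd48, a ligand of CD2 in mice, was at 249 and 262 CPM in KO-labelled aTreg and rTreg, against 156 and 155 CPM in WT aTreg and rTreg (log2 fold change 0.72, SE 0.0665, edgeR adjusted p = 3.07e-06). The T cell surface glycoprotein gene Thy1 was at 835 and 670 CPM in KO-labelled aTreg and rTreg, against 519 and 453 CPM in WT aTreg and rTreg (log2 fold change 0.62, edgeR adjusted p = 1.38e-05). Cd28, the main costimulatory receptor of T cells, fell by 0.39 log2 units (edgeR adjusted p = 0.00362), with 36.1 and 38 CPM in KO-labelled aTreg and rTreg, against 44.2 and 53.6 CPM in WT aTreg and rTreg. Between states the receptor-type phosphatase gene Ptprj (CD148) rose by 1.20 log2 units with an SE of 0.125 (edgeR adjusted p = 5.47e-05), with 34 CPM in KO-labelled aTreg and 17 CPM in KO-labelled rTreg, and 37.4 CPM in WT aTreg and 14.2 CPM in WT rTreg.

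Of 7 other receptor-proximal kinase genes, 2 fell and none rose between genotypes, which is 28.6% called against 47.2% of all tested genes (22.8% lower). Between states 3 fell and none rose, which is 42.9% called against 13.4% of all tested genes (5.44% lower). Fyn, a Src family kinase like Lck, was at 478 and 456 CPM in KO-labelled aTreg and rTreg, against 580 and 550 CPM in WT aTreg and rTreg, and fell by 0.27 log2 units (SE 0.0672, edgeR adjusted p = 0.00483). Txk, a Tec family kinase, fell by 0.65 in aTreg (edgeR adjusted p = 6.42e-05), and Syk, the relative of ZAP-70, by 0.79 (edgeR adjusted p = 0.0223) from a low level, with 8.63 CPM in KO-labelled aTreg and 11.9 CPM in KO-labelled rTreg, and 5.19 CPM in WT aTreg and 11.5 CPM in WT rTreg. Zap70, of the same kinase family as Syk, moved the other way between states.

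Of the adaptor and effector genes, 8 of 21 fell and 3 rose in the KO-labelled libraries, which is 52.4% called against 47.2% of all tested genes (22.8% lower and 24.4% higher), with a median log2 fold change of −0.10, against 0.002 over all tested genes. Itpkb, a kinase that makes inositol tetrakisphosphate, was at 294 and 310 CPM in KO-labelled aTreg and rTreg, against 556 and 538 CPM in WT aTreg and rTreg (log2 fold change −0.86, SE 0.0696, edgeR adjusted p = 1.03e-06). Tespa1, known in mice for its part in receptor signalling during thymocyte development, fell by 0.75 (SE 0.0683, edgeR adjusted p = 2.83e-06), and the adaptor gene Nck2 rose by 0.47 (SE 0.0942, edgeR adjusted p = 0.00132). Between states 2 rose and 1 fell, which is 14.3% called against 13.4% of all tested genes. Malt1, a protease and scaffold on the path to NF-kappaB, rose by 0.38 in aTreg (edgeR adjusted p = 0.00828). The rise was 0.20 in the KO-labelled pair and 0.55 in WT. Its levels were 150 and 131 CPM in KO-labelled aTreg and rTreg, against 211 and 144 CPM in WT aTreg and rTreg. Malt1 also fell with genotype (−0.31, edgeR adjusted p = 0.00689). Trat1, a receptor-associated transmembrane adaptor, fell by 0.65 in aTreg (edgeR adjusted p = 0.000134).

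Of 20 genes listed as negative regulators, 19 were tested, of which 3 rose and 9 fell between genotypes and 7 rose and 1 fell between states. That is 63.2% called for genotype and 42.1% for state, against 47.2% and 13.4% of all tested genes. Sla2 and Sla, adaptors that lower receptor levels at the surface, were higher in the KO-labelled libraries and in aTreg. Sla was at 557 CPM in KO-labelled aTreg and 426 CPM in KO-labelled rTreg, against 437 CPM in WT aTreg and 294 CPM in WT rTreg. It rose by 0.44 log2 units with genotype (edgeR adjusted p = 0.000278) and by 0.48 with state (edgeR adjusted p = 0.00076), and Sla2 by 0.61 and 0.36 (edgeR adjusted p = 2.45e-05 and 0.00563). Rasa1, a GTPase-activating protein for Ras, fell by 0.40 with genotype (edgeR adjusted p = 0.000327). The adaptor gene Lax1 fell by 0.40 with genotype (edgeR adjusted p = 0.000587) and rose by 0.49 with state (edgeR adjusted p = 0.000663). Hnrnpll, which regulates the splicing of CD45, rose by 0.42 in aTreg (SE 0.0679, edgeR adjusted p = 0.00121) and did not pass between genotypes (edgeR adjusted p = 0.357), while Hnrnpl passed neither test (edgeR adjusted p = 0.0662 for genotype and 0.623 for state). Over all pathway lists 30 of 57 tested genes were called for genotype (9 higher, 21 lower), which is 52.6% against 47.2% of all tested genes, and 17 for state (12 higher, 5 lower), which is 29.8% against 13.4%. With the tested term alone 10 were called for genotype, which is 17.5% against 16.8% of all tested genes. None was called for state in that design, with 5 at an unadjusted p under 0.05, against 328 of all 9680 tested genes. DESeq2 with the additive terms called 21 for genotype, which is 36.8% against 26.1% of all tested genes. For state DESeq2 called 7, which is 12.3% against 4.37%.

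**Figure D4:**
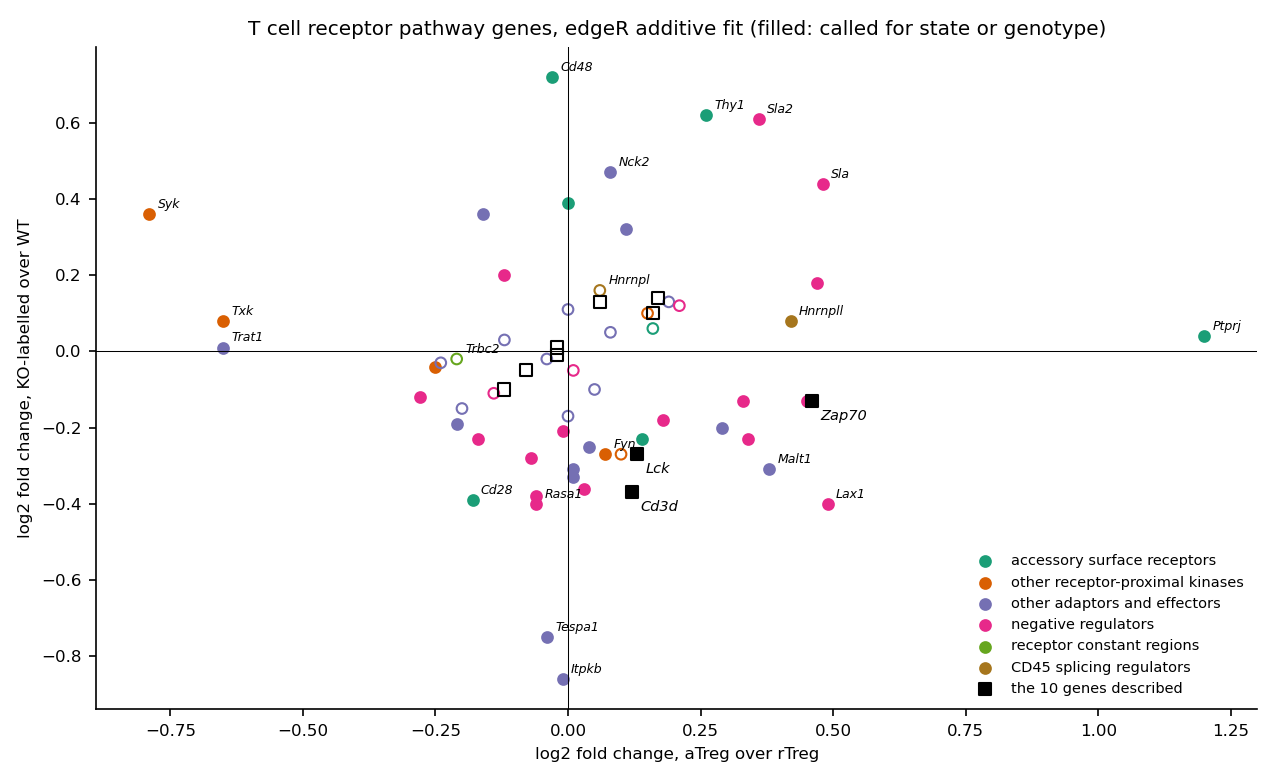
Each point is a gene of the pathway lists that is reported here or, as a square, of the 10 described, by its log2 fold change of aTreg over rTreg (horizontal) and of the KO-labelled over the WT libraries (vertical) in edgeR's additive fit, filled where called for state or genotype. Of the squares, Cd3d, Lck and Zap70 are filled.

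Genes were ranked by their distance to the mean profile of the 4 CD3 chain genes. The log2 CPM values were centred on each gene's mean over the 4 libraries. The chains differed from each other, as Cd3d did above, so genes near this mean need not be like any single chain. The 5 nearest were Fhod1, Snx17, Ddx39b, Zfp706 and Prkcd, at distances of 0.00558 to 0.016 log2 units, against a median of 0.341 over 9676 tested genes outside the CD3 chains. Over 4 libraries, and for a profile that spans only −0.05 to 0.07 log2 units, this is a description of 5 nearly level genes.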

How the data were processed

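Messenger RNA was measured in 4 libraries, 1 per combination of genotype and state. Per the labels' protocols, a SMARTer kit turned TRIzol-extracted RNA into libraries. The submitters' processing notes name HISAT2 2.2.1, featureCounts 2.0.1 and the build GRCm38, and the sources used here name neither the annotation nor the strand setting. The authors deposited whole read counts per gene symbol, not normalized. Their further table holds deposited variance-stabilised values on a log2-like scale, used as an alternative, and a log2 fold change of WT over knockout with its error. It also holds a mean of size-factor-scaled counts, a deposited signal, a deposited test statistic (a score), and the authors' p-value and adjusted p-value.

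The level filter was a mean CPM of 5 or more over the libraries (9680 of 19044, with 99.31% of counts). TMM factors were 0.995 to 1.006. edgeR 4.0.16 in R 4.3.3 fitted genotype and state as additive terms, and the error reported is the log2 fold change divided by the root of the F statistic. The biological coefficient of variation was 6.66%, and the prior weighed 11.8 degrees of freedom to 1 residual, so a gene's error is largely pooled over genes and need not hold the spread between mice. No test within a state or of a difference between states was possible, as each group is 1 library. Intervals at 95% for a ratio of 2 libraries are exact binomial, conditional on the sum. Those for a ratio of genes or a difference of ratios use a normal approximation. All intervals cover counting error only, as each group is 1 library, and they hold no spread between mice. PCR copies are not separate molecules, so the intervals can be too narrow even for counting error. A count of 0 allows up to 3 counts, 0.143 to 0.17 CPM here. The fit was also run on simulated data, whose spread was set from these same 4 libraries. Such data cannot show how the fit behaves with spread between mice. Exon lengths, positions and overlaps came from GENCODE M21. Alternatives were other scalings, filters and prior counts, DESeq2 1.42.0, limma 3.58.1 with voom, and the tested term alone with all libraries and with each left out.

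The 10 genes and the lists were chosen with earlier results of these data known. Outside the 10 genes, the rule named in each list the 3 called genes with the largest genotype change and the 2 with the largest state change, all constant region and CD45 splicing genes, Ripk1, Foxp3 and Xist as checks, and the 5 nearest patterns. Some genes under this rule are not reported here. Cd4 also stood in the Treg marker list. Marker lists for plasma, gamma delta T, dendritic and stromal cells summed to between 77.4 and 103, 10.3 and 14.4, 0.143 and 3.3, and 153 and 229 CPM over the libraries. Those for Treg and CD8 T cells summed to between 2890 and 3320 and 7.82 and 12.9 CPM. Without Ighm the B cell sum was 16.6 to 34 CPM. Most of the stromal sum was Pecam1 alone (149 to 227 CPM), and most of the plasma cell sum was Xbp1 alone (76.9 to 93.5 CPM).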

Additional observations from a re-analysis of the deposited data

Results flagged for a closer look

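Cd3e moved in opposite directions between genotypes in the 2 states. Its log2 ratio of the KO-labelled over the WT library was −0.12 in aTreg (counting interval −0.17 to −0.07) and 0.11 in rTreg (0.06 to 0.16). The difference between states, −0.23 with a counting interval of −0.30 to −0.16, was not tested, since each group is 1 library. The interval of this difference also left out 0 for 5 other genes, at 0.12 for Cd247 (0.04 to 0.20), 0.09 for Lck (0.04 to 0.13), 0.07 for Cd5 (0.02 to 0.11), −0.10 for Zap70 (−0.16 to −0.03) and −0.05 for Ptprc (−0.08 to −0.03). It held 0 for Cd3d, Cd3g, Cd4 and Lat. These intervals cover counting error only and hold no spread between mice. The share of all tested genes with an interval that leaves out 0 was not computed, so no dependence on state is read from them.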

How the results depend on the processing

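For the 10 genes, the counts called for genotype (2) and state (1) were unchanged with DESeq2 size factors, library totals, both other level filters, DESeq2 and limma voom. Upper-quartile scaling called 3 for genotype, Zap70 being added, and 1 for state. With the tested term alone none was called for genotype or state in edgeR, with 2 and 1 at an unadjusted p under 0.05. Over the pathway genes this design called 10 for genotype and 0 for state. Over all genes it called 1626 for genotype and 0 for state, against 4573 and 1293 in the additive fit. DESeq2 with additive terms called 2527 genes for genotype and 423 for state, and 7 pathway genes for state. Leaving out 1 library each, with the tested term alone, gave 0 to 0 of the 10 genes for either term, 0 to 8 pathway genes and 1 to 1525 genes in all for genotype, and 0 for both in state. All genes called for genotype numbered 1 without either KO-labelled library and 1503 without WT aTreg. Fewer libraries were fitted there, with 1 residual degree of freedom. The cause of the other moves was not tested.

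Directions of differences that had not passed turned in some settings. For genotype, Cd3e was 0.006 with no filter, 0.06 without KO-labelled aTreg and 0.025 without WT aTreg. Cd247 was 0.022 without WT rTreg. Cd5 was −0.037 with upper-quartile scaling and −0.029 without WT aTreg. Zap70 was 0.05 without KO-labelled rTreg and 0.119 without WT aTreg. For state, without KO-labelled rTreg and without WT aTreg, Cd3d was −0.044 and −0.096 and Lck −0.026 and −0.008. Cd3e was 0.037 without KO-labelled aTreg and 0.032 without KO-labelled rTreg, and Lat −0.01 without KO-labelled aTreg. The fits without 1 library have the tested term alone, so genotype and state are not balanced there and a difference in one enters the other. Within a genotype, Cd3d was higher in aTreg by 0.10 (KO-labelled) and 0.13 (WT) log2 units, and Lck by 0.17 and 0.08. Within a state, the genotype ratio of Zap70 was −0.18 in aTreg and −0.08 in rTreg. Of the alternative values of ratios between 2 libraries, 227 stayed within the counting interval and 13, all with upper-quartile scaling, did not. With all transcripts as exons, the RPKM of 9 genes moved by more than its SD over the libraries, an alternative chosen after seeing the data. No paired analysis was possible because each group is 1 library and the labels number no replicates, beyond the additive fit itself, which compares genotypes within states and states within genotypes. Depth did not limit the 10 genes, which had 4782 or more counts in each library.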

Other observations

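Around the CD3 gene cluster on chromosome 9, which spans 40056 bases in GRCm38 from Cd3g to Cd3e, 6 other protein-coding genes lie within 100 kb. Kmt2a, a histone methyltransferase gene on the Cd3g side, was at 707 and 760 CPM in KO-labelled aTreg and rTreg, against 991 and 992 CPM in WT aTreg and rTreg (log2 fold change −0.44, edgeR adjusted p = 0.000227). On the Cd3e side, Jaml, a junctional adhesion molecule gene, was at 13.3 and 24.1 CPM in KO-labelled aTreg and rTreg, against 9.47 and 14.3 CPM in WT aTreg and rTreg (log2 fold change 0.63, edgeR adjusted p = 0.00376). The ATP synthase subunit gene Atp5l rose by 0.19 log2 units (edgeR adjusted p = 0.0354). Ube4a (0.07, edgeR adjusted p = 0.41), next to Cd3g, and Mpzl3 (0.27, edgeR adjusted p = 0.0644) did not pass, and Mpzl2, next to Cd3e, was below the level filter, at or under 0.266 CPM.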
